A study of Arabidopsis thaliana with 30 samples.

Results

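Transcripts of whole jazD leaves of Arabidopsis thaliana were compared 12 h after a spray with coronatine and 12 h after a spray with water. The coronatine leaves came from plants sprayed with a 5 µM solution in water, and the mock leaves from plants sprayed with water alone, with 3 libraries in each group. Both groups carried jazD in the Col-0 ecotype, and plants of both were 26 days old and grown under 16 h of light and 8 h of darkness. The 6 libraries belong to a series of 30 that covers both treatments at 0, 1, 3, 12 and 24 h. The genes described are the 18052 of 27655 with an abundance of at least 1 TPM (transcript abundance scaled to a fixed library total) in at least 3 of these 6 libraries, and they are called the measured genes below. Of the 9603 others, 366 reached 1 TPM in 2 of the 6 libraries, and 2120 measured genes reached it in exactly 3. In 1664 of those 2120 the 3 libraries were the mock ones, and in 381 the coronatine ones, so a gene could enter through the group where it was high.

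Coronatine is a bacterial toxin that mimics jasmonoyl-isoleucine, the active form of the plant hormone jasmonate. The active hormone joins the receptor COI1 to JAZ repressors, which are then degraded, and this frees MYC transcription factors to switch on wound, defence and secondary metabolite genes. The labels do not describe the line; as background, jazD plants have disruptions in most JAZ genes, while JAZ8, JAZ11 and JAZ12 are intact. Jasmonate also promotes loss of green colour in leaves. Chlorophyll is then converted by a chain of plastid and cytosolic enzymes into colourless products, the photosynthetic proteins are dismantled, and their nitrogen is exported, a sequence also known from leaf senescence and controlled there largely by NAC and WRKY transcription factors.

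TPM is a length-normalised abundance that keeps no record of depth, so the sequencing depth of each library is unknown. The labels do not say whether the 3 libraries of a group came from separate plants, so p-values measure the spread between libraries, which may be technical. Across the measured genes, Spearman correlations were 0.991 to 0.995 within a group and 0.718 to 0.755 between the groups. The libraries of the coronatine group each had 15994 to 16120 genes at 1 TPM or more, against 17774 to 17827 in mock libraries. The 100 most abundant genes took 37.4 to 37.7% of all TPM in coronatine leaves, against 30.2 to 30.9% in mock leaves. TPM has a fixed total in each library. The median log2 difference of the measured genes, coronatine minus mock, was −0.57 on the log2(TPM + 1) scale, and −0.02 after rescaling with trimmed-mean (TMM) factors. A gene with equal TPM in both groups is therefore higher in coronatine leaves after TMM rescaling. The words rose and fell are kept for genes that limma called with the same sign on both scalings, at a Benjamini-Hochberg adjusted p under 0.05 over 19005 genes. Log2 differences are coronatine minus mock on the log2(TPM + 1) scale of TPM as deposited, which understates the change of low genes, and adjusted p-values are from limma on that scale.

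At 12 h the abundance of most measured genes differed between coronatine and mock leaves. Of the 18052 genes, 4444 rose (24.6%), 8006 fell (44.3%) and 5602 were not called on both scalings, so 12450 (69%) changed. The 3 coronatine values did not overlap the 3 mock values in 15986 genes (88.6%). This count includes the 1664 and 381 genes that entered through the mock or the coronatine libraries alone, where the filter itself forbids overlap. The counts for gene lists below are to be read against these shares, since most genes of any list would change. Of the genes that changed, 35.7% rose. With TMM rescaling alone this share was 49%, with quantile normalization 47.4%, and 50.3% in the authors' deposited table, so the balance of rises and falls rests on the scaling. The log2 difference exceeded 2 in 960 of the genes that rose and lay below −2 in 2111 of those that fell. At the extremes, 123 genes had a mean under 1 TPM in mock leaves and at least 10 TPM in coronatine leaves, and 153 had a mean under 1 TPM in coronatine leaves and at least 10 TPM in mock leaves.

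**Figure D1:**
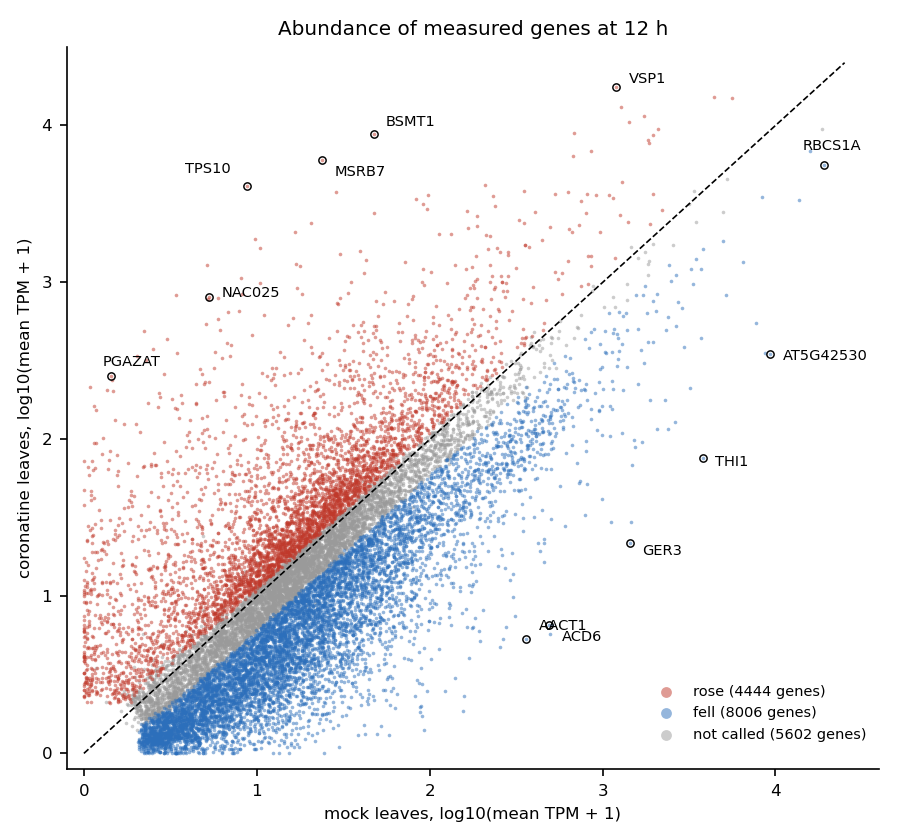
Mean TPM of each of the 18052 measured genes in coronatine leaves (vertical axis) against mock leaves (horizontal axis) at 12 h, both as log10(TPM + 1) and each a mean of 3 libraries; colours mark the 4444 genes that rose, the 8006 that fell and the others, and the dashed line marks equal abundance. 12 genes named in the text are labelled. TPS10, BSMT1 and MSRB7 stand far above the line, and ACD6, AACT1 and THI1 lie far below it.

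Among the 8133 measured genes with a symbol, the 15 largest rises, of genes with a mean of at least 10 TPM in the higher group and no overlap, were TPS10, MSRB7, GSTU6, BSMT1, PGAZAT, ILL5, HSP17.6II, NAC025, ELI3-2, TRFL4, GLYI7, BGLU22, XTH11, JOX4 and JMT. TPS10 (AT2G24210, chromosome 2, 10294330 to 10297530 on TAIR10), a monoterpene synthase, measured 4001, 4303 and 4093 TPM in coronatine leaves, against 1.65, 12.8 and 9.04 TPM in mock leaves (log2 difference 9.17 ± 0.42 SE, adjusted p = 1.8e-16). A gene of a few TPM in mock leaves thus belonged to the abundant transcripts of coronatine leaves. BSMT1 (AT3G11480), which methylates benzoate and salicylate to volatile esters, measured 8632, 9180 and 8612 TPM in coronatine leaves, against 23.0, 69.6 and 46.5 TPM in mock leaves (log2 difference 7.67 ± 0.45 SE, adjusted p = 2.3e-14). MSRB7 (AT4G21830), a methionine sulfoxide reductase that repairs oxidised protein, measured 5585, 6684 and 5861 TPM in coronatine leaves, against 16.3, 24.8 and 27.8 TPM in mock leaves (log2 difference 8.01 ± 0.25 SE, adjusted p = 6.4e-20). Separation of the groups was part of the rule that chose these genes. NAC025, a transcription factor of the NAC family, measured 791, 834 and 789 TPM in coronatine leaves, against 3.31, 5.04 and 4.55 TPM in mock leaves (log2 difference 7.26). PGAZAT, a polygalacturonase that loosens pectin in abscission zones, measured 210.0, 319 and 229.9 TPM in coronatine leaves, against 0.14, 0.11 and 1.03 TPM in mock leaves (log2 difference 7.51 ± 0.20 SE, adjusted p = 3.8e-21). HSP17.6II, a cytosolic small heat shock protein, measured 229, 245 and 240.0 TPM in coronatine leaves, against 0.40, 0.73 and 0.24 TPM in mock leaves (log2 difference 7.37). The other genes of this set included GSTU6, a glutathione transferase, with a log2 difference of 8.00, BGLU22, a beta-glucosidase, with 7.15, and XTH11, an enzyme of xyloglucan remodelling, with 7.11. Values of mock replicate 1 were the lowest of the 3 mock libraries in several of them, such as 1.65 TPM for TPS10 against 12.8 and 9.04 TPM in the other two.

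By the same rule, the 15 largest falls among genes with a symbol were ACD6, AACT1, LTL1, GER3, THI1, FBA5, CA2, IGMT4, ORA59, PME44, DCF, CYP706A6, PnsB3, CRR42 and HB2. Some genes without a symbol fell as far or farther. ACD6 (AT4G14400, chromosome 4, 8294446 to 8298602 on TAIR10), an ankyrin-repeat membrane protein of salicylate-dependent defence, measured 14.8, 0.66 and 1.39 TPM in coronatine leaves, against 495, 508 and 466 TPM in mock leaves (log2 difference −6.95 ± 0.45 SE, adjusted p = 2.3e-13). AACT1 (AT5G61160), which couples agmatine to coumaric acid in the synthesis of antimicrobial amides, measured 10.5, 2.13 and 0.53 TPM in coronatine leaves, against 334, 309 and 438 TPM in mock leaves (log2 difference −6.55 ± 0.38 SE, adjusted p = 1.7e-14). In both genes coronatine replicate 1 held most of what remained, and it too lay far below the mock libraries. Without that library the log2 difference was −7.94 for ACD6 and −7.35 for AACT1. THI1 (AT5G54770), the plastid enzyme that makes the thiazole ring of thiamine, measured 90.6, 60.9 and 73.5 TPM in coronatine leaves, against 3787, 3793 and 3778 TPM in mock leaves (log2 difference −5.66 ± 0.09 SE, adjusted p = 4.4e-25). CA2, a carbonic anhydrase of the leaf, measured 35.5, 21.7 and 29.0 TPM in coronatine leaves, against 1499, 1448 and 1406 TPM in mock leaves (log2 difference −5.64). GER3, a germin-like protein of the cell wall, measured 21.8, 14.4 and 26.6 TPM in coronatine leaves, against 1599, 1428 and 1292 TPM in mock leaves (log2 difference −6.07). Mock levels of these genes varied with time in both directions. At 0 and 24 h mock means were lower for GER3 (156 and 145 TPM), THI1 (1305 and 1341 TPM) and ACD6 (114 and 131 TPM). They were higher than at 12 h for LTL1 (200 and 194 TPM, against 155 TPM) and PME44 (84.7 and 103 TPM, against 48.8 TPM). FBA5, a fructose-bisphosphate aldolase, fell by 5.65 on the log2 scale. PnsB3 and CRR42, a subunit and an assembly factor of the chloroplast NADH dehydrogenase-like complex, had log2 differences of −5.02 and −5.01. LTL1, a lipase of the GDSL family, and DCF, an acyltransferase of cutin, had log2 differences of −6.41 and −5.13.

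The most abundant transcripts changed places. The 5 highest in coronatine leaves were VSP1, LOX2, BGLU18, ARGAH2 and CORI3, all of which rose. VSP1, a vegetative storage protein and a standard jasmonate marker, measured 17140, 17182 and 18332 TPM in coronatine leaves, against 785, 1452 and 1369 TPM in mock leaves (log2 difference 3.92 ± 0.24 SE, adjusted p = 9.2e-14). ARGAH2, an arginase, measured 12627, 13130 and 13750 TPM in coronatine leaves, against 831, 1542 and 1449.7 TPM in mock leaves (log2 difference 3.42 ± 0.18 SE, adjusted p = 1.9e-15). The 5 highest in mock leaves were RBCS1A, PDF1.2, PDF1.3, LHCB1.3 and AT5G42530, of which all but PDF1.2 fell. RBCS1A, a small subunit of the carbon-fixing enzyme Rubisco, measured 6278, 4816 and 5814 TPM in coronatine leaves, against 18892, 19418 and 18569 TPM in mock leaves (log2 difference −1.76 ± 0.12 SE, adjusted p = 6.5e-13). The defensin PDF1.2 measured 10740, 9167 and 8526 TPM in coronatine leaves, against 16680, 16675 and 22257 TPM in mock leaves and was not called on both scalings (log2 difference −0.96, adjusted p = 0.00071 on TPM as deposited and 0.22 after TMM rescaling). PDF1.3, RBCS and LHCB1 genes have near-identical copies, and how reads shared between copies were counted is not given in the sources used here, so values of single copies are uncertain. PDF1.3 was no longer called without coronatine replicate 2 (−1.17) or mock replicate 3 (−1.10). AT5G42530, a gene of unknown function, measured 709.9, 161 and 181 TPM in coronatine leaves, against 10189, 9353 and 8364 TPM in mock leaves (log2 difference −5.07 ± 0.32 SE, adjusted p = 1.4e-13), with coronatine replicate 1 again the highest of its group.

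A larger share of short promoter windows held a G-box, and likewise a T/G-box, among genes that rose than among genes that fell. The windows are the 250 bases before the gene start in RefSeq (TAIR10.1), found for 17948 measured genes, and were searched on both strands. CACGTG, the G-box that MYC factors bind, was present in 10.1% of 4441 windows of genes that rose, in 5.79% of 7982 windows of genes that fell and in 7.58% of all windows. AACGTG, the T/G-box, was present in 11.5% of windows of genes that rose, 5.64% of genes that fell and 7.55% of all. For the other boxes the shares lay closer together. TTGACC, the core of the W-box bound by WRKY factors, was in 12.8% of windows of genes that rose and 11.5% of genes that fell, and GATAAG, the I-box of light-regulated genes, in 12.6% of genes that rose and 12.7% of genes that fell. AAAATATCT, the evening element of clock-regulated genes, was in 2.52% of windows of genes that rose and 2.69% of genes that fell. These shares are a description, with no test, and a match is not shown to be a binding site. The 4 windows below show where the boxes lie in 3 of the genes with the largest rises and in SGR2, a gene of chlorophyll breakdown that also rose. Each is written 5′ to 3′ on the strand of its gene and ends at the base before the gene start, and capitals mark every match to the 5 boxes.
TPS10, chr2:10294036-10294285 (forward strand): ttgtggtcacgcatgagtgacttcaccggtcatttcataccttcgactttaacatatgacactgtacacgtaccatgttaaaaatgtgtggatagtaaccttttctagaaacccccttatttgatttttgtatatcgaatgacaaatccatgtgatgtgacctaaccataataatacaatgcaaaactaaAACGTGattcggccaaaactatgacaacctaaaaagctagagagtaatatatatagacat
MSRB7, chr4:11585543-11585792 (reverse strand): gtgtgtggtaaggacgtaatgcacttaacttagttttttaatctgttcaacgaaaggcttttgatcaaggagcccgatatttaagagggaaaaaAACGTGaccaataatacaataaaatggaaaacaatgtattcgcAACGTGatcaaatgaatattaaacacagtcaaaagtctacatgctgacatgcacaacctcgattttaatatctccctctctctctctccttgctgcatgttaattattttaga
NAC025, chr1:22516352-22516601 (forward strand): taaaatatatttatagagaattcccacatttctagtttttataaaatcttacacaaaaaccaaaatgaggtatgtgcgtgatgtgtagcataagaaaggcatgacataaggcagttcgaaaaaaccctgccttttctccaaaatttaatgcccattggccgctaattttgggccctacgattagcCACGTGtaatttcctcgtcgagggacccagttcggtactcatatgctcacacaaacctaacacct
SGR2, chr4:7155900-7156149 (forward strand): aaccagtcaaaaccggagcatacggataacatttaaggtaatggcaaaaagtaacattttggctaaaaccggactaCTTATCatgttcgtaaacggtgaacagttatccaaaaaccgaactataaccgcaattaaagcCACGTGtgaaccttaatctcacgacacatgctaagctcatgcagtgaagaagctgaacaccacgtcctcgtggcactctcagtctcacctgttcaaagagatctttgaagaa
In TPS10 the T/G-box begins 60 bases before the gene start, and MSRB7 has T/G-boxes that begin 156 and 113 bases before it. NAC025 has a G-box that begins 65 bases before its start. SGR2 has a G-box that begins 112 bases and an I-box that begins 174 bases before its start. Among the 15 genes with a symbol and the largest rises, G-boxes or T/G-boxes were found in the windows of 5 (TPS10, MSRB7, GSTU6, NAC025 and GLYI7), and among the 15 with the largest falls in those of 4 (ACD6, GER3, ORA59 and PME44). These counts join both boxes, and the share of all windows with either box was not taken. The sets of 15 are small, and no contrast between them is drawn.

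Jasmonate turnover had the highest median difference of the 4 jasmonate lists, and the others held genes that rose little, fell or were not called. All 12 measured genes of jasmonate turnover rose, with a median log2 difference of 5.42. They encode the enzymes that oxidise, cleave, sulfate or methylate the hormone. JOX4, an oxidase that inactivates jasmonic acid by hydroxylation, measured 3671, 3700.5 and 3879 TPM in coronatine leaves, against 15.9, 32.8 and 34.6 TPM in mock leaves (log2 difference 7.10 ± 0.38 SE, adjusted p = 5.2e-15). JMT, which makes the volatile methyl jasmonate, measured 2342, 2457 and 2354 TPM in coronatine leaves, against 12.7, 26.8 and 19.6 TPM in mock leaves (log2 difference 6.91 ± 0.18 SE, adjusted p = 3.8e-21). ILL5, of the family of amidohydrolases that release hormones from amino acid conjugates, measured 356, 320.1 and 336 TPM in coronatine leaves, against 0.37, 1.72 and 1.03 TPM in mock leaves (log2 difference 7.43 ± 0.30 SE, adjusted p = 1.1e-17), and CYP94B3, a cytochrome P450 that hydroxylates jasmonoyl-isoleucine, had a log2 difference of 5.77. Of 17 synthesis genes, 14 rose and 1 fell (median 1.49). LOX4, a plastid lipoxygenase at the entry to the pathway, averaged 525 ± 15.8 TPM in coronatine leaves and 46.5 ± 3.89 TPM in mock leaves (SD, n = 3 each). LOX3, a close relative, averaged 315 ± 2.65 TPM in coronatine leaves and 35.1 ± 3.05 TPM in mock leaves (SD, n = 3 each). The most abundant gene of the list, LOX2, measured 15515, 15340 and 14981 TPM in coronatine leaves, against 3892, 4430.1 and 4876 TPM in mock leaves (log2 difference 1.802 ± 0.10 SE, adjusted p = 4.8e-15). OPR3, the peroxisomal reductase of the pathway, had a log2 difference of 2.41. The gene that fell was FAD8, a plastid fatty acid desaturase, with 5.81, 4.53 and 6.32 TPM in coronatine leaves, against 129.8, 130.0 and 134 TPM in mock leaves (log2 difference −4.35 ± 0.07 SE, adjusted p = 1.2e-24), while its homolog FAD7 rose, with 943, 1046 and 1022 TPM in coronatine leaves, against 251, 275 and 256 TPM in mock leaves (log2 difference 1.94 ± 0.07 SE, adjusted p = 6.6e-19). JAR1, the enzyme that joins jasmonate to isoleucine, was not called on both scalings (log2 difference −0.70, adjusted p = 1.1e-07 on TPM as deposited and 0.36 after TMM rescaling).

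Of the 13 JAZ genes, 12 rose and JAZ2 was not called. Loci that are disrupted in jazD can give partial transcripts, so a JAZ level is not a level of working repressor. Among the intact loci, JAZ8 measured 544, 597 and 510.3 TPM in coronatine leaves, against 16.2, 20.1 and 20.2 TPM in mock leaves (log2 difference 4.800 ± 0.16 SE, adjusted p = 1.7e-19). JAZ11 measured 66.7, 72.8 and 66.2 TPM in coronatine leaves, against 15.7, 14.3 and 13.2 TPM in mock leaves (log2 difference 2.18 ± 0.08 SE, adjusted p = 3.8e-18), and JAZ12 measured 148, 141 and 134 TPM in coronatine leaves, against 112, 115 and 110.1 TPM in mock leaves (log2 difference 0.32 ± 0.06 SE, adjusted p = 1.5e-05). The difference was thus large for JAZ8, intermediate for JAZ11 and small for JAZ12. None of them overlapped between the groups, beside 88.6% of all measured genes without overlap. Among the other loci JAZ9 reached the highest level, 836 ± 38.4 TPM in coronatine leaves and 164 ± 16.1 TPM in mock leaves (SD, n = 3 each), followed by JAZ10 with 560.0 ± 33.8 TPM in coronatine leaves and 39.9 ± 2.15 TPM in mock leaves. JAZ7 measured 24.3, 23.1 and 21.2 TPM in coronatine leaves, against 0.26, 0.71 and 0.71 TPM in mock leaves. JAZ4 measured 6.58, 5.92 and 7.46 TPM in coronatine leaves, against 0.18, 0.26 and 0.27 TPM in mock leaves, so both were near the floor in mock leaves. The remaining rises were JAZ13 with a log2 difference of 2.69, JAZ3 with 2.33, JAZ5 with 2.03, JAZ1 with 1.94 and JAZ6 with 1.12. JAZ2 measured 4.65, 4.68 and 4.43 TPM in coronatine leaves, against 5.30, 4.39 and 4.37 TPM in mock leaves, and its groups overlapped (log2 difference −0.02 on TPM as deposited and 0.50 after TMM rescaling).

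Of 16 regulators of jasmonate signalling, 12 rose and 2 fell (median 0.83). MYB24, a MYB factor known from jasmonate control of stamens, averaged 262 ± 18.0 TPM in coronatine leaves and 1.90 ± 0.52 TPM in mock leaves (SD, n = 3 each, log2 difference 6.51). Its partner MYB21 averaged 196 ± 8.12 TPM in coronatine leaves and 1.73 ± 0.73 TPM in mock leaves (SD, n = 3 each, log2 difference 6.21). RAP2.6, an ERF factor, and JAM1, a bHLH factor that competes with MYC proteins, had log2 differences of 5.34 and 2.76. The genes that fell were ORA59, the ERF factor of the jasmonate and ethylene branch that drives defensins, with 2.62, 0.79 and 0.59 TPM in coronatine leaves, against 79.3, 72.5 and 93.3 TPM in mock leaves (log2 difference −5.24 ± 0.17 SE, adjusted p = 1.9e-19), and MYC4, with a log2 difference of −0.81. MYC4 was no longer called without coronatine replicate 3 (−0.78) or mock replicate 2 (−0.80). MYC2, the best known MYC factor of the pathway and singled out here after its values were seen, measured 256, 269 and 256 TPM in coronatine leaves, against 107, 109 and 110.1 TPM in mock leaves (log2 difference 1.25 ± 0.08 SE, adjusted p = 4.8e-14). COI1, the receptor, measured 11.5, 10.7 and 10.8 TPM in coronatine leaves, against 18.3, 20.6 and 18.6 TPM in mock leaves and was not called on both scalings (adjusted p = 0.08 after TMM rescaling). Of 17 defence products, 12 rose and 3 fell (median 3.42). Those that rose included the volatile terpene synthases TPS02 and TPS03, with log2 differences of 6.72 and 6.74. Those that fell were AACT1, the chitin-binding protein PR4 (log2 difference −2.07) and the defensin PDF1.2b (−1.01). PDF1.2b was no longer called when any coronatine library or mock replicate 3 was left out, with a log2 difference of −1.03 to −0.85.

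Chlorophyll breakdown genes differed by step and by gene copy. Of its 14 measured genes 8 rose, 3 fell and 3 were not called, with a median of 1.18 against −0.57 for all measured genes. Chlorophyll b is first reduced by NYC1 or NOL and then by HCAR. NYC1 rose modestly, with 175, 195 and 163 TPM in coronatine leaves, against 135, 136 and 142 TPM in mock leaves (log2 difference 0.36 ± 0.08 SE, adjusted p = 0.00036). NOL measured 9.23, 9.92 and 9.57 TPM in coronatine leaves, against 12.9, 12.9 and 10.9 TPM in mock leaves and was not called on both scalings, and HCAR fell, with 15.8, 13.9 and 16.4 TPM in coronatine leaves, against 36.6, 36.6 and 36.2 TPM in mock leaves (log2 difference −1.197 ± 0.07 SE, adjusted p = 2.1e-14). SGR1, which removes magnesium from chlorophyll a, measured 166, 200.1 and 166 TPM in coronatine leaves, against 17.3, 17.9 and 21.3 TPM in mock leaves (log2 difference 3.17 ± 0.10 SE, adjusted p = 2.2e-19). Its homolog SGR2 measured 25.7, 30.6 and 24.5 TPM in coronatine leaves, against 2.36, 1.43 and 1.98 TPM in mock leaves (log2 difference 3.26), whereas the more distant homolog SGRL fell, with 62.0, 52.8 and 61.5 TPM in coronatine leaves, against 131, 125 and 125 TPM in mock leaves (log2 difference −1.10 ± 0.05 SE, adjusted p = 3e-16). Every coronatine value of SGR1 and SGR2 lay above every mock value, and every one of SGRL below. The groups were likewise without overlap in 88.6% of all measured genes.

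PPH (AT5G13800, chromosome 5, 4451837 to 4454576 on TAIR10), the pheophytinase that removes the phytol tail, measured 813, 832 and 808 TPM in coronatine leaves, against 64.3, 89.4 and 83.1 TPM in mock leaves (log2 difference 3.37 ± 0.08 SE, adjusted p = 3.8e-22). PAO (AT3G44880, chromosome 3, 16383595 to 16386312 on TAIR10), the oxygenase that opens the ring and commits the pigment to loss of colour, measured 731, 728 and 737 TPM in coronatine leaves, against 68.0, 73.0 and 80.6 TPM in mock leaves (log2 difference 3.29 ± 0.06 SE, adjusted p = 1.4e-24). The 3 libraries of each group were close to one another in both genes, and the groups lay far apart. RCCR, which reduces the product of PAO, went the other way, with 23.7, 20.9 and 24.2 TPM in coronatine leaves, against 60.0, 56.5 and 55.2 TPM in mock leaves (log2 difference −1.29 ± 0.10 SE, adjusted p = 6.7e-12). Of the enzymes that modify the colourless products, CYP89A9, a cytochrome P450, measured 262, 276 and 239.7 TPM in coronatine leaves, against 11.9, 11.5 and 11.6 TPM in mock leaves (log2 difference 4.36 ± 0.13 SE, adjusted p = 4.6e-20). MES16, an esterase, measured 49.2, 50.8 and 44.6 TPM in coronatine leaves, against 11.6, 11.1 and 11.2 TPM in mock leaves (log2 difference 2.00). TIC55, the plastid hydroxylase, was lower on TPM as deposited (−0.20) and higher after TMM rescaling (0.43), so it was not called. Of the chlorophyllases, CLH1 rose to 7433, 7942 and 7933 TPM in coronatine leaves, against 1812, 1812 and 1921 TPM in mock leaves (log2 difference 2.07 ± 0.07 SE, adjusted p = 1.1e-19), and CLH2 overlapped between groups at 3.23, 2.6 and 3.03 TPM in coronatine leaves, against 3.29, 3.49 and 2.71 TPM in mock leaves.

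**Figure D2:**
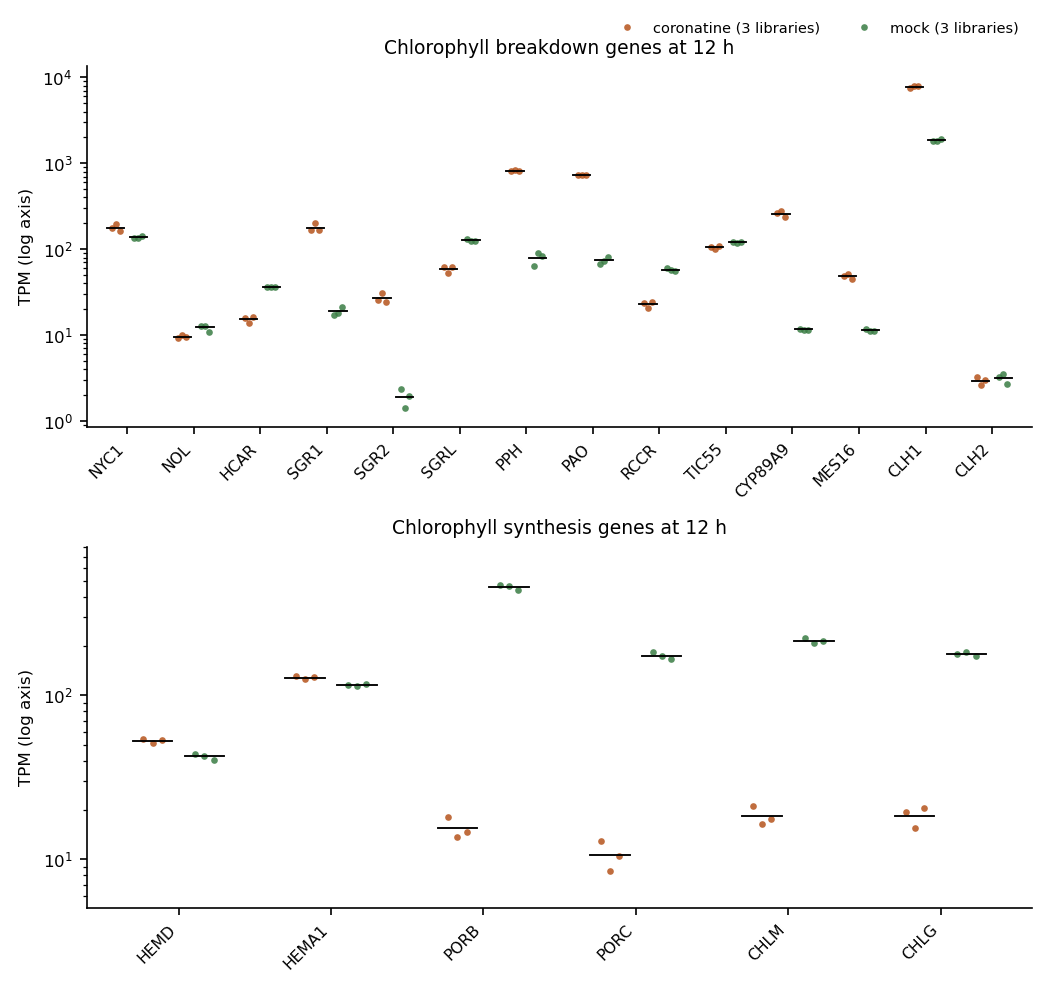
TPM in each of the 3 coronatine libraries (left of each pair) and the 3 mock libraries (right of each pair) at 12 h for the 14 chlorophyll breakdown genes (upper panel) and for the chlorophyll synthesis genes named in the text (lower panel); the vertical axes are logarithmic and short bars mark the group means. SGR1, PPH, PAO and CYP89A9 lie well above mock in coronatine leaves, SGRL, HCAR and RCCR below, and PORB, PORC, CHLM and CHLG show the widest gaps downward.

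Chlorophyll synthesis fell in 21 of 25 measured genes and rose in 2, with a median of −2.19. PORB, a light-dependent reductase of protochlorophyllide, measured 18.1, 13.8 and 14.7 TPM in coronatine leaves, against 472, 464 and 441 TPM in mock leaves (log2 difference −4.81 ± 0.08 SE, adjusted p = 1.3e-24). Its homolog PORC measured 12.98, 8.48 and 10.5 TPM in coronatine leaves, against 184, 173 and 166 TPM in mock leaves (log2 difference −3.93). CHLM and CHLG, the methyltransferase and the chlorophyll synthase of the last steps, had log2 differences of −3.49 and −3.22. No coronatine value of these 4 genes reached the mock range, beside 88.6% of all measured genes without overlap. The 2 that rose, HEMD and HEMA1, did so by 0.32 and 0.15. HEMA1 encodes glutamyl-tRNA reductase, the first committed enzyme of the pathway, and measured 131, 126 and 129 TPM in coronatine leaves, against 115, 114 and 117 TPM in mock leaves (log2 difference 0.15 ± 0.04 SE, adjusted p = 0.0016).

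Of 12 regulators of chloroplast development, 9 fell and 2 rose. GLK1, which with its homolog GLK2 activates photosynthesis genes, measured 167, 135 and 150.1 TPM in coronatine leaves, against 342, 357 and 332 TPM in mock leaves (log2 difference −1.19 ± 0.08 SE, adjusted p = 2.4e-13). GLK2 measured 3.49, 2.08 and 2.80 TPM in coronatine leaves, against 40.1, 44.03 and 40.1 TPM in mock leaves (log2 difference −3.50 ± 0.13 SE, adjusted p = 1.9e-18), so the copy with the lower level had the larger difference. The GATA factor GNC measured 3.32, 2.55 and 2.68 TPM in coronatine leaves, against 35.5, 32.8 and 32.6 TPM in mock leaves (log2 difference −3.17). Its homolog CGA1 measured 0.20, 0.16 and 0.08 TPM in coronatine leaves, against 8.68, 8.46 and 8.29 TPM in mock leaves (log2 difference −3.05). CIA2 and its homolog CIL, which support plastid protein import and translation genes, had log2 differences of −3.20 and −1.75, and CIL was at or near 0 TPM in every coronatine library. Sigma factors, which direct the plastid RNA polymerase, were divided. SIG1, SIG2 and SIG6 fell, by 1.69, 1.80 and 2.95 on the log2 scale, and SIG5 rose, with 15.6, 16.1 and 16.2 TPM in coronatine leaves, against 6.68, 6.34 and 7.29 TPM in mock leaves (log2 difference 1.13 ± 0.05 SE, adjusted p = 4.2e-16). HY5, a light-signalling bZIP factor, also rose (log2 difference 0.69). GUN1, of plastid-to-nucleus signalling, was not called on both scalings (log2 difference −0.47).

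The photosynthetic apparatus fell as a block in its carbon-fixing part and less uniformly in its antenna. All 21 Calvin cycle genes fell (median −2.26), as did 15 of 16 photorespiration genes (median −2.36), and no gene of either list rose. The Calvin cycle list took 1.42% of all TPM in coronatine leaves and 6.42% in mock leaves (means of 3 libraries). FBA1, a plastid aldolase, measured 47.9, 32.5 and 41.9 TPM in coronatine leaves, against 1016, 1012 and 960.2 TPM in mock leaves (log2 difference −4.59 ± 0.18 SE, adjusted p = 7.5e-18). PRK, phosphoribulokinase, measured 115, 90.0 and 109 TPM in coronatine leaves, against 1103, 1119 and 1066 TPM in mock leaves (log2 difference −3.38). The Rubisco small subunits RBCS1B and RBCS2B had log2 differences of −4.62 and −3.82. HPR1, the peroxisomal hydroxypyruvate reductase of photorespiration, averaged 49.2 ± 5.40 TPM in coronatine leaves and 564 ± 27.1 TPM in mock leaves (SD, n = 3 each, log2 difference −3.50). GLYK, glycerate kinase, was the photorespiration gene not called (log2 difference −0.65, adjusted p = 0.72 after TMM rescaling).

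Of 21 light-harvesting genes 15 fell, 1 rose and 5 were not called (median −1.28). LHCB2.3, of the trimeric antenna of photosystem II, measured 1.44, 0.84 and 1.73 TPM in coronatine leaves, against 53.4, 48.3 and 37.0 TPM in mock leaves (log2 difference −4.34 ± 0.14 SE, adjusted p = 2.6e-19), and LHCB4.3 and LHCA6 had log2 differences of −3.07 and −2.72. LHCA1, of the photosystem I antenna, measured 971, 839 and 1018 TPM in coronatine leaves, against 857, 909.6 and 866 TPM in mock leaves, with overlapping groups. LHCB7, a minor antenna protein, rose, with 33.6, 34.7 and 34.4 TPM in coronatine leaves, against 12.1, 13.2 and 10.1 TPM in mock leaves (log2 difference 1.47 ± 0.09 SE, adjusted p = 1.7e-13). Of 30 nuclear photosystem and electron transport genes 21 fell and 1 rose (median −1.29). PSAD2, of photosystem I, averaged 116 ± 20.4 TPM in coronatine leaves and 588 ± 49.7 TPM in mock leaves (SD, n = 3 each). PSBO2, of the oxygen-evolving complex of photosystem II, averaged 234 ± 19.8 TPM in coronatine leaves and 1132 ± 47.2 TPM in mock leaves (SD, n = 3 each), and PSAE1 was the one that rose (log2 difference 0.31, and −0.07 with quantile normalization). The 8 others, among them PSBR and PSAL, were lower on TPM as deposited and were not called after TMM rescaling, or were called higher there. Coronatine replicate 2 had the lowest of the 3 coronatine values in each light-harvesting, photosystem, Calvin cycle and photorespiration gene that fell, and in 4237 of all 8006 genes that fell.

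All 21 nuclear genes of the plastid ribosome fell (median −2.22), with the largest difference for PRPL4, 32.5, 29.3 and 35.99 TPM in coronatine leaves, against 335, 293 and 307 TPM in mock leaves (log2 difference −3.22 ± 0.09 SE, adjusted p = 4.4e-21). Transcripts encoded in the plastid itself did not follow. Of 14 measured, 1 fell and 0 rose, with a median of −0.15. The one that fell was ycf1 (log2 difference −1.27). The D2 protein gene psbD measured 107, 98.0 and 105 TPM in coronatine leaves, against 81.5, 119 and 85.5 TPM in mock leaves, with overlapping groups. Plastid transcripts were sparse in these libraries (psbA, one of the most transcribed plastid genes and singled out after its values were seen, measured 14.0, 17.4 and 27.9 TPM in coronatine leaves, against 17.2, 25.0 and 18.9 TPM in mock leaves), and how messenger RNA was selected is not given in the sources used here, so their levels need not reflect the plastid pool. Cytosolic ribosomal protein genes fell in all 8 measured, with a median of −1.82 and the largest difference in RPL5B, −2.31.

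**Figure D3:**
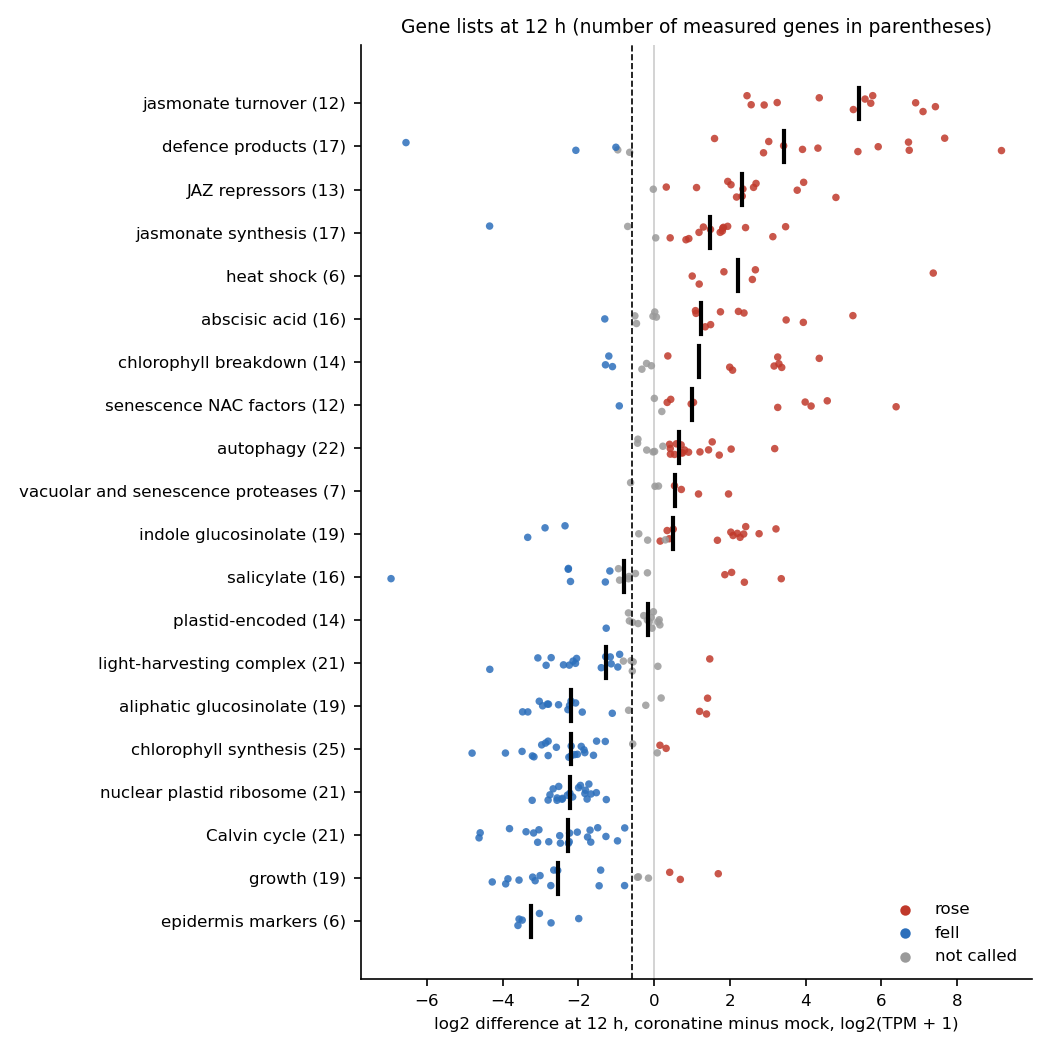
Log2 difference between coronatine and mock leaves at 12 h (horizontal axis, log2(TPM + 1) scale) for each member of 20 gene lists, 1 point per gene, with colours for genes that rose, fell or were not called; black ticks mark list medians and the dashed line the median of all 18052 measured genes, −0.57. Jasmonate turnover lies farthest to the right, autophagy and NAC lists are shifted to the right of the line, and chlorophyll synthesis, Calvin cycle and plastid ribosome lists lie to its left.

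Pigments other than chlorophyll and plastid proteases were mixed. Of 13 carotenoid genes 8 fell and 1 rose. CCD4, a dioxygenase that cleaves carotenoids, measured 0.98, 0.81 and 0.56 TPM in coronatine leaves, against 24.0, 25.9 and 23.0 TPM in mock leaves (log2 difference −3.83 ± 0.10 SE, adjusted p = 2.9e-21), and LUT5, LCYE and LUT1, which lead to lutein, had log2 differences of −2.64, −2.46 and −2.26. BCH2, a beta-carotene hydroxylase, rose, with 159, 152 and 162 TPM in coronatine leaves, against 1.89, 2.50 and 2.74 TPM in mock leaves (log2 difference 5.56 ± 0.09 SE, adjusted p = 5.4e-25). Of 7 tocopherol genes 4 rose and 3 fell, and HPD, which makes the precursor homogentisate, measured 115, 126 and 117 TPM in coronatine leaves, against 20.5, 20.2 and 20.7 TPM in mock leaves (log2 difference 2.49 ± 0.07 SE, adjusted p = 2.9e-20). Of 8 genes for photosystem repair and stromal proteases 3 rose and 2 fell. CLPD, a Clp chaperone known from senescing and dehydrated leaves, measured 1978, 2088 and 2020.2 TPM in coronatine leaves, against 104, 112 and 122 TPM in mock leaves (log2 difference 4.16 ± 0.10 SE, adjusted p = 2.7e-22), whereas FTSH1 and FTSH5 had log2 differences of −1.16 and −1.13.

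Senescence regulators of the NAC family rose in 9 of 12 and fell in 1 (median 1.01). NAC019, NAC055 and RD26, closely related factors that respond to abscisic acid and jasmonate, were the most abundant. NAC019 measured 646, 717 and 613 TPM in coronatine leaves, against 6.39, 7.86 and 6.39 TPM in mock leaves (log2 difference 6.39 ± 0.18 SE, adjusted p = 1.4e-20), and NAC055 and RD26 had log2 differences of 4.57 and 3.99. ORE1, a positive regulator of age-dependent senescence, measured 49.6, 55.3 and 44.1 TPM in coronatine leaves, against 1.77, 1.77 and 2.03 TPM in mock leaves (log2 difference 4.14 ± 0.18 SE, adjusted p = 3.6e-17), and NAC046, which activates chlorophyll breakdown genes, measured 30.2, 32.6 and 27.7 TPM in coronatine leaves, against 2.18, 2.22 and 2.32 TPM in mock leaves (log2 difference 3.26 ± 0.12 SE, adjusted p = 2e-18). JUB1, a negative regulator of senescence, had a log2 difference of 1.04 (adjusted p = 0.003), and NAC087, ATAF1 and VNI2 had 0.98, 0.44 and 0.34. NAP, which drives abscisic acid-linked chlorophyll loss, measured 5.24, 7.86 and 3.13 TPM in coronatine leaves, against 6.18, 3.69 and 3.45 TPM in mock leaves and NAC016 measured 2.05, 1.72 and 1.74 TPM in coronatine leaves, against 1.71, 1.65 and 2.13 TPM in mock leaves. Both overlapped between groups and were not called. Without coronatine replicate 3 NAP was called higher (0.49). ORS1, a homolog of ORE1, fell (log2 difference −0.92), at 0.28 to 0.89 TPM in coronatine leaves, against 1.74 to 2.35 TPM in mock leaves, and was not called with quantile normalization (−0.29).

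Of 8 WRKY factors 4 rose and 2 fell. WRKY45, WRKY57, WRKY75 and WRKY6 rose, with log2 differences of 2.93, 2.76, 2.55 and 1.15. WRKY54 measured 8.14, 3.06 and 5.15 TPM in coronatine leaves, against 63.5, 57.3 and 59.5 TPM in mock leaves (log2 difference −3.32 ± 0.28 SE, adjusted p = 3.7e-11), and WRKY53, an early senescence regulator, had a log2 difference of −2.58. Of 11 other senescence-associated genes 7 rose and 2 fell. XTH24, of the xyloglucan-modifying family, measured 1254, 1235 and 1137 TPM in coronatine leaves, against 81.2, 94.9 and 95.7 TPM in mock leaves (log2 difference 3.73 ± 0.10 SE, adjusted p = 2.1e-21), and SAUR36, an auxin-induced gene that promotes senescence, measured 15.6, 21.4 and 16.5 TPM in coronatine leaves, against 1.68, 1.96 and 1.41 TPM in mock leaves (log2 difference 2.80). SAG12, the cysteine protease that is the classical marker of late senescence, did not reach the filter, with 0.37, 0.37 and 0 TPM in coronatine leaves, against 0.25, 0 and 0.1 TPM in mock leaves. SAG101, a lipase-like defence protein, and PIF5, a bHLH factor, fell, with log2 differences of −1.89 and −1.76.

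**Figure D4:**
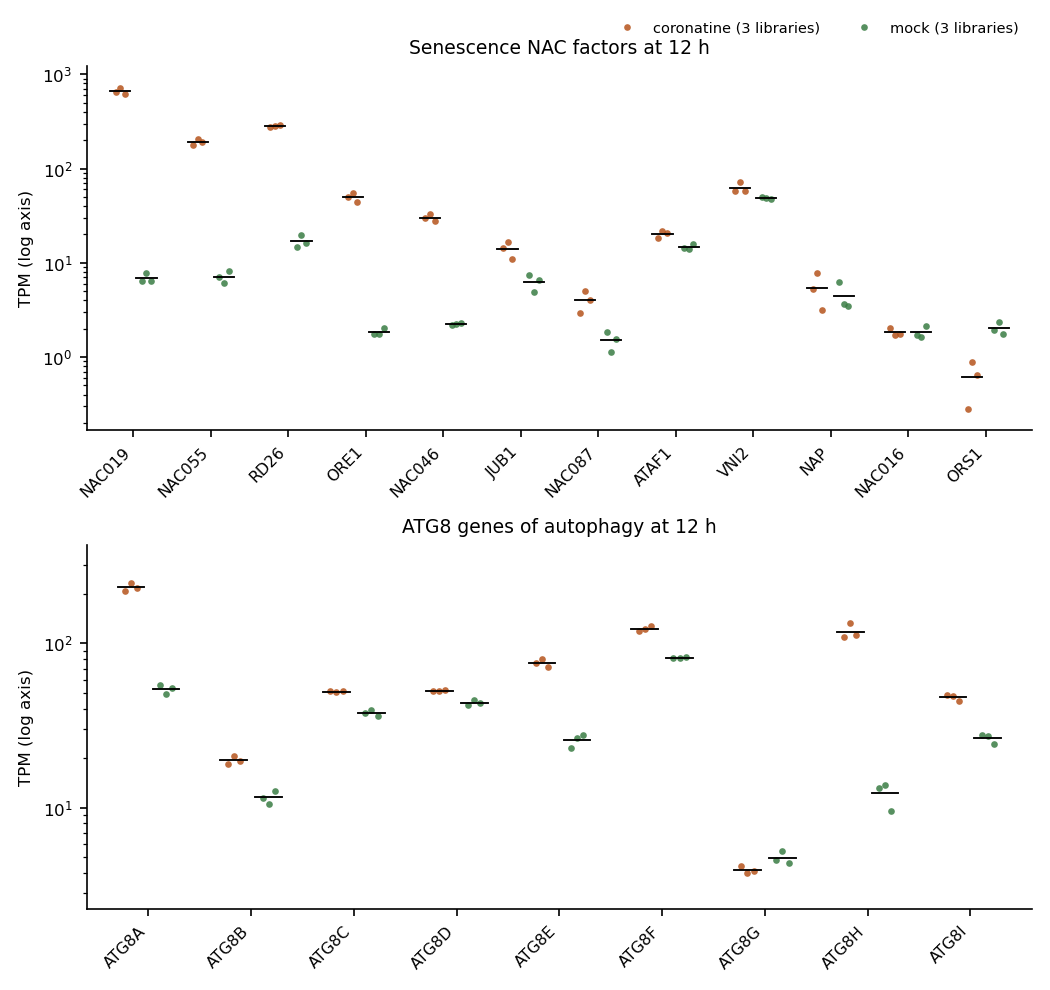
TPM in each of the 3 coronatine libraries (left of each pair) and the 3 mock libraries (right of each pair) at 12 h for the 12 senescence NAC factors (upper panel) and the 9 measured ATG8 genes (lower panel), on logarithmic axes with short bars at the group means. NAC019, ORE1 and NAC046 are separated widely, NAP and NAC016 overlap, and ATG8A and ATG8H have the widest gaps among the ATG8 genes.

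Autophagy genes, whose products enclose cell contents and plastid pieces for delivery to the vacuole, rose in 16 of 22 and fell in 0, with a median of 0.65. ATG8H, a ubiquitin-like protein of the autophagosome membrane, measured 109, 132 and 113 TPM in coronatine leaves, against 13.2, 13.8 and 9.59 TPM in mock leaves (log2 difference 3.18 ± 0.14 SE, adjusted p = 1.4e-16). Its homolog ATG8A measured 207, 233 and 217 TPM in coronatine leaves, against 55.8, 49.3 and 53.1 TPM in mock leaves (log2 difference 2.03 ± 0.10 SE, adjusted p = 5.4e-16). ATG7, the activating enzyme of ATG8 conjugation, measured 29.2, 29.2 and 25.9 TPM in coronatine leaves, against 8.47, 7.88 and 7.19 TPM in mock leaves (log2 difference 1.72). The other 6 were not called, among them ATI2, a receptor-like ATG8 partner, with 43.7, 48.9 and 42.5 TPM in coronatine leaves, against 47.4, 42.2 and 44.2 TPM in mock leaves. Of 7 vacuolar and senescence proteases 4 rose and 0 fell. RD21A, a papain-like cysteine protease, measured 1208, 1307 and 1176 TPM in coronatine leaves, against 308, 313 and 322 TPM in mock leaves (log2 difference 1.96 ± 0.05 SE, adjusted p = 7.4e-21), and RD19A and AALP had log2 differences of 1.17 and 0.72. GAMMA-VPE, a vacuolar processing enzyme, was not called (log2 difference −0.62, adjusted p = 0.92 after TMM rescaling).

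Nitrogen remobilisation was divided within gene families. Of 11 genes 5 rose and 4 fell. ASN1, asparagine synthetase 1, measured 1383, 1583 and 1572 TPM in coronatine leaves, against 12.8, 41.9 and 33.6 TPM in mock leaves (log2 difference 5.79 ± 0.24 SE, adjusted p = 1.9e-17), and ASN2 measured 4.84, 2.54 and 3.41 TPM in coronatine leaves, against 102, 121 and 115 TPM in mock leaves (log2 difference −4.65 ± 0.13 SE, adjusted p = 8.2e-21). Glutamate dehydrogenase was similarly divided, with a log2 difference of 2.75 for GDH2 and −3.15 for GDH1. NRT1.7, a nitrate transporter that exports nitrate from old leaves, measured 437, 479 and 455 TPM in coronatine leaves, against 109, 110.5 and 105 TPM in mock leaves (log2 difference 2.07), and NRT1.5 had 2.66. Of the cytosolic glutamine synthetases, GLN1;3 and GLN1;4 fell, by 1.05 and 1.08 on the log2 scale.

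Glucosinolates, sulfur-rich defence compounds of the cabbage family, were split by their amino acid precursor. Indole glucosinolate genes, which start from tryptophan, rose in 13 of 19 and fell in 3 (median 0.50). CYP79B3, the cytochrome P450 of the first step, measured 1492, 1486 and 1522 TPM in coronatine leaves, against 225, 331 and 294 TPM in mock leaves (log2 difference 2.42 ± 0.13 SE, adjusted p = 4.5e-15). CYP81F1, which modifies the indole ring, measured 214, 213 and 191 TPM in coronatine leaves, against 24.4, 19.9 and 19.8 TPM in mock leaves (log2 difference 3.22 ± 0.08 SE, adjusted p = 1.9e-21), and its relative CYP81F2 measured 1.33, 1.37 and 0.59 TPM in coronatine leaves, against 21.4, 18.2 and 20.1 TPM in mock leaves (log2 difference −3.34 ± 0.21 SE, adjusted p = 1.7e-13). The MYB regulator MYB51 fell (log2 difference −2.88), as did the methyltransferase gene IGMT2 (−2.35). IGMT4, of the same methyltransferase family but outside this list, was among the 15 largest falls. It averaged 5.36 TPM in coronatine leaves and 276 TPM in mock leaves. Of 8 tryptophan synthesis genes 6 rose and 1 fell, led by TSA1 with a log2 difference of 1.98. Of 11 sulfate assimilation genes 6 rose and 3 fell, led by APK1, which makes the sulfate donor, with 2.32. APR3 and APR2, which reduce activated sulfate, fell, by 1.90 and 1.28 on the log2 scale.

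Aliphatic glucosinolate genes, which start from methionine, fell in 13 of 19 and rose in 3 (median −2.19). CYP79F1, of the first step, measured 20.0, 10.01 and 11.2 TPM in coronatine leaves, against 124, 118 and 103 TPM in mock leaves (log2 difference −3.03 ± 0.32 SE, adjusted p = 2.6e-09). MYB28, a main regulator of the branch, averaged 5.92 ± 1.41 TPM in coronatine leaves and 67.9 ± 3.51 TPM in mock leaves (SD, n = 3 each, log2 difference −3.34). MYB29, the other one, measured 2.27, 0.95 and 1.2 TPM in coronatine leaves, against 18.1, 18.3 and 16.4 TPM in mock leaves (log2 difference −2.95). In most of the genes that fell, coronatine replicate 1 had the highest coronatine value, as it did for CYP79F1. The 3 that rose were FMOGS-OX1, a side-chain oxygenase, and the sulfotransferases SOT17 and SOT18, with log2 differences of 1.41, 1.38 and 1.201.

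Abscisic acid genes rose in 10 of 16 and fell in 1 (median 1.23). NCED3, the rate-limiting enzyme of synthesis under stress, measured 28.9, 33.6 and 33.2 TPM in coronatine leaves, against 1.38, 0.95 and 1.11 TPM in mock leaves (log2 difference 3.94 ± 0.11 SE, adjusted p = 1.5e-20). HAI1, a clade A protein phosphatase that the hormone induces, measured 58.2, 66.3 and 50.2 TPM in coronatine leaves, against 0.63, 0.37 and 0.66 TPM in mock leaves (log2 difference 5.25 ± 0.13 SE, adjusted p = 7.9e-22), and ABI1 and PP2CA, of the same clade, had log2 differences of 3.49 and 2.37. RD29A, a dehydration-responsive marker, measured 20.3, 18.6 and 24.0 TPM in coronatine leaves, against 22.2, 18.7 and 21.0 TPM in mock leaves and overlapped between groups. Salicylate genes were divided, with 4 of 16 that rose and 6 that fell, near the 24.6% and 44.3% of all measured genes. PBS3, which completes salicylate synthesis from isochorismate, measured 92.5, 114 and 101 TPM in coronatine leaves, against 11.2, 6.89 and 9.51 TPM in mock leaves (log2 difference 3.36 ± 0.35 SE, adjusted p = 2.6e-09), and EDS5, the plastid exporter of the precursor, had 2.38. EDS1, NIMIN1 and DMR6, of salicylate signalling and turnover, fell, by 2.21, 2.27 and 2.26 on the log2 scale. PR1, the classical output gene, measured 323, 317 and 211 TPM in coronatine leaves, against 511, 522 and 577 TPM in mock leaves and did not pass on either scaling (adjusted p = 0.059). Ethylene genes rose in 4 of 8, led by ACS2, a synthesis enzyme, with 6.07, 7.86 and 5.34 TPM in coronatine leaves, against 0.25, 0.51 and 0.22 TPM in mock leaves (log2 difference 2.48 ± 0.15 SE, adjusted p = 3.7e-14). Of 22 flavonoid and anthocyanin genes 7 rose and 5 fell. CHS, chalcone synthase, measured 2330.3, 2309 and 2364 TPM in coronatine leaves, against 730.0, 751 and 704 TPM in mock leaves (log2 difference 1.68 ± 0.13 SE, adjusted p = 4.6e-12), and the regulator PAP1 had a log2 difference of −1.94.

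Growth and cell division genes were lower. All 15 genes of DNA replication and the cell cycle fell (median −1.98), though several were at a few TPM. TSO2, a subunit of ribonucleotide reductase, measured 8.08, 6.14 and 6.91 TPM in coronatine leaves, against 83.9, 81.6 and 83.8 TPM in mock leaves (log2 difference −3.39 ± 0.14 SE, adjusted p = 2.2e-17). MCM7, of the replicative helicase, measured 2.91, 2.18 and 2.41 TPM in coronatine leaves, against 14.7, 14.6 and 15.2 TPM in mock leaves (log2 difference −2.18). Of 19 growth genes 13 fell and 3 rose (median −2.55). HBI1, a bHLH factor that promotes cell elongation, measured 0.52, 0.63 and 0.41 TPM in coronatine leaves, against 28.0, 30.9 and 26.4 TPM in mock leaves (log2 difference −4.28 ± 0.09 SE, adjusted p = 3.2e-23). XTH4, of cell wall loosening, and PIN7, an auxin exporter, had log2 differences of −3.92 and −3.86. EXPA10, an expansin, rose, with 269.6, 230.4 and 282 TPM in coronatine leaves, against 78.9, 78.5 and 81.4 TPM in mock leaves (log2 difference 1.69 ± 0.14 SE, adjusted p = 2.2e-11). Of 8 wax genes 6 fell and 2 rose. LTPG1, a lipid transfer protein of the cuticle, measured 19.1, 17.7 and 20.6 TPM in coronatine leaves, against 265, 251 and 257 TPM in mock leaves (log2 difference −3.68 ± 0.09 SE, adjusted p = 1.5e-21), and CER3, of alkane formation, measured 473, 467 and 495 TPM in coronatine leaves, against 37.7, 54.5 and 45.6 TPM in mock leaves (log2 difference 3.37 ± 0.09 SE, adjusted p = 8.7e-21). All 6 epidermis markers fell, with a median of −3.26, and their summed level was 0.013 to 0.0136% of all TPM in coronatine leaves, against 0.0751 to 0.0779% in mock leaves. ATML1, a homeodomain factor of epidermal identity, measured 1.53, 1.42 and 1.58 TPM in coronatine leaves, against 29.4, 26.0 and 26.0 TPM in mock leaves (log2 difference −3.48 ± 0.09 SE, adjusted p = 9.8e-22). Its partner PDF2 measured 2.64, 2.52 and 2.52 TPM in coronatine leaves, against 42.4, 41.6 and 39.6 TPM in mock leaves (log2 difference −3.57 ± 0.13 SE, adjusted p = 1.5e-18). The markers CER5 and CER6 are also in the wax list. In bulk leaf, fewer cells of a type and less RNA per cell cannot be told apart, and the part of the epidermis in the wax and growth results was not tested.

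Markers of the other leaf cell types were mixed. The 3 mesophyll markers, RBCS1A, LHCB1.3 and CA1, are photosynthesis genes and fell. Of 4 guard cell markers 1 rose and 0 fell, and FAMA, which specifies guard cells, measured 27.6, 28.2 and 26.4 TPM in coronatine leaves, against 25.8, 25.1 and 27.7 TPM in mock leaves. Of 5 phloem markers 2 rose and 0 fell, and the sucrose carrier SUC2 had a log2 difference of −0.23 and was not called on both scalings. Of 4 xylem markers 1 rose and 0 fell, of 3 trichome markers 1 rose and 2 fell, and neither of the myrosin cell markers TGG1 and TGG2 was called. All 5 flower markers lay at or below 0.21 TPM in every library, and the root markers IRT1 and EXPA7 at or below 0.39 TPM. The root marker PYK10, a beta-glucosidase, measured 948, 1223 and 1141 TPM in coronatine leaves, against 199, 232 and 253 TPM in mock leaves (log2 difference 2.27), and NRT2.1, a nitrate transporter, fell (log2 difference −2.28).

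The measured heat shock genes rose, whereas starch, clock and endoplasmic reticulum lists were mixed. Of 13 starch genes 7 fell and 2 rose. DPE1, a plastid glucanotransferase of starch breakdown, measured 2.32, 2.00 and 2.59 TPM in coronatine leaves, against 32.0, 31.2 and 29.9 TPM in mock leaves (log2 difference −3.28 ± 0.11 SE, adjusted p = 2.6e-19), and BAM1, a stress-induced beta-amylase, measured 209, 229 and 197 TPM in coronatine leaves, against 35.0, 35.4 and 35.9 TPM in mock leaves (log2 difference 2.54 ± 0.08 SE, adjusted p = 1.2e-19). All 6 measured heat shock genes rose, including HSFA2, a heat stress transcription factor, with 22.3, 26.7 and 23.9 TPM in coronatine leaves, against 2.80, 3.21 and 2.87 TPM in mock leaves (log2 difference 2.67 ± 0.16 SE, adjusted p = 4.2e-14), and HSP90.1 (2.59). The heat shock list also holds HSP21 and HSP22, which did not reach the filter. HSP21 was at 0 TPM in all 6 libraries, and HSP22 at or below 0.14 TPM in both groups. The highest coronatine value was that of replicate 2 in each of the 6 measured genes of the list. Of 12 clock genes 4 rose and 1 fell. LUX, of the evening complex, measured 88.6, 92.4 and 93.2 TPM in coronatine leaves, against 19.4, 19.3 and 18.5 TPM in mock leaves (log2 difference 2.203 ± 0.09 SE, adjusted p = 1.6e-17), and TOC1 had a log2 difference of −1.01. Of 10 genes of protein folding in the endoplasmic reticulum 3 rose and 2 fell, and the chaperone BIP1 was not called on both scalings (log2 difference −0.68, adjusted p = 0.68 after TMM rescaling).

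The time course was used to ask which of these differences set in after 3 h. The groups at 3, 12 and 24 h share no library. At 3 h, 14.5% of all measured genes had risen and 36.1% had fallen. Of the 4444 genes that rose at 12 h, 2128 had also risen at 3 h, 295 had fallen there and 2021 were not called. Of the 8006 that fell, 4941 had also fallen at 3 h, 123 had risen and 2942 were not called. The effect itself differed between 12 and 3 h in both directions. It was higher at 12 h in 5497 measured genes (30.5%) and lower in 6190 (34.3%), by the contrast of the 2 effects in limma on both scalings. The labels do not separate time after the spray from time of day, and these cannot be told apart here.

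The effect on some gene lists differed between 12 and 3 h. Of the 19 aliphatic glucosinolate genes, 14 had risen and 1 had fallen at 3 h, beside 14.5% and 36.1% of all measured genes, and the effect was lower at 12 h in all 19. CYP79F1 measured 114, 124 and 127 TPM in coronatine leaves, against 35.7, 54.0 and 40.2 TPM in mock leaves at 3 h, and the difference between its effects at 12 and 3 h was −4.52 ± 0.45 SE, adjusted p = 3.1e-09. IPMI1, of methionine chain elongation, averaged 93.4 ± 4.73 TPM in coronatine leaves and 35.8 ± 7.24 TPM in mock leaves at 3 h (SD, n = 3 each) and 5.77 ± 3.22 TPM in coronatine leaves and 112 ± 13.1 TPM in mock leaves at 12 h (difference between the effects −5.52 ± 0.41 SE, adjusted p = 1.3e-11). At 0 h CYP79F1 averaged 124 ± 4.51 TPM in coronatine leaves and 146 ± 21.7 TPM in mock leaves. IPMI1 averaged 117 ± 3.13 TPM in coronatine leaves and 139 ± 16.4 TPM in mock leaves at 0 h. In both genes mock leaves were lower at 3 h than at 0 h, and coronatine leaves were not higher. Their rise at 3 h was thus a difference from a lower mock level. Of the 22 autophagy genes the effect was higher at 12 h than at 3 h in 20. At 3 h 0 of them had risen and 5 had fallen, and their median of −0.45 was close to the −0.47 of all measured genes. ATG8H measured 8.53, 10.5 and 10.8 TPM in coronatine leaves, against 16.5, 10.3 and 11.2 TPM in mock leaves at 3 h (difference between the effects 3.49 ± 0.20 SE, adjusted p = 2e-13). The NAC list had a higher effect in 10 of 12, abscisic acid genes in 12 of 16, heat shock genes in 6 of 6 and clock genes in 10 of 12. Chlorophyll breakdown had a higher effect in 8 of 14 and a lower one in 4. SGR1, for one, measured 15.6, 12.3 and 13.5 TPM in coronatine leaves, against 18.8, 15.03 and 14.8 TPM in mock leaves at 3 h, with overlapping groups (difference between the effects 3.39 ± 0.15 SE, adjusted p = 1.1e-15), whereas PPH had already risen at 3 h, with 368, 333 and 336 TPM in coronatine leaves, against 57.6, 52.3 and 53.7 TPM in mock leaves. Calvin cycle and plastid ribosome genes had a lower effect in 21 of 21 each, with medians at 3 h of −0.40 and −0.33 beside −0.47 for all measured genes. Jasmonate turnover genes had a higher effect in 0 of 12 and a lower one in 3.

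Among genes with a symbol, the 5 whose effect grew most after 3 h were PGAZAT, GH9B15, GH3.3, BRU6 and UGT73B2. PGAZAT averaged 1.13 ± 0.51 TPM in coronatine leaves and 0.05 ± 0.09 TPM in mock leaves at 3 h (difference between the effects 6.52 ± 0.28 SE, adjusted p = 1e-15), so almost all of its abundance was reached later. GH9B15, of a family of cell wall glucanases, averaged 0.05 ± 0.05 TPM in coronatine leaves and 0.04 ± 0.04 TPM in mock leaves at 3 h and 100.4 ± 14.8 TPM in coronatine leaves and 0.29 ± 0.45 TPM in mock leaves at 12 h (difference 6.32 ± 0.19 SE, adjusted p = 3.2e-18). GH3.3 and BRU6, of the GH3 family whose members join auxin to amino acids, had an effect of −0.12 and −0.24 at 3 h and of 5.59 and 4.87 at 12 h. UGT73B2, a flavonoid glucosyltransferase, had fallen at 3 h (−1.39) and rose at 12 h (3.41), with a difference of 4.81 ± 0.17 SE, adjusted p = 3.2e-17. The 5 whose effect dropped most were IPMI1, LTL1, AACT1, CA2 and CYP79F1. CA2 averaged 353 ± 22.1 TPM in coronatine leaves and 714 ± 23.3 TPM in mock leaves at 3 h (SD, n = 3 each), and the difference between its effects was −4.62 ± 0.14 SE, adjusted p = 3.1e-18. Its mock level was higher at 12 h, with a mean of 1451 TPM.

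**Figure D5:**
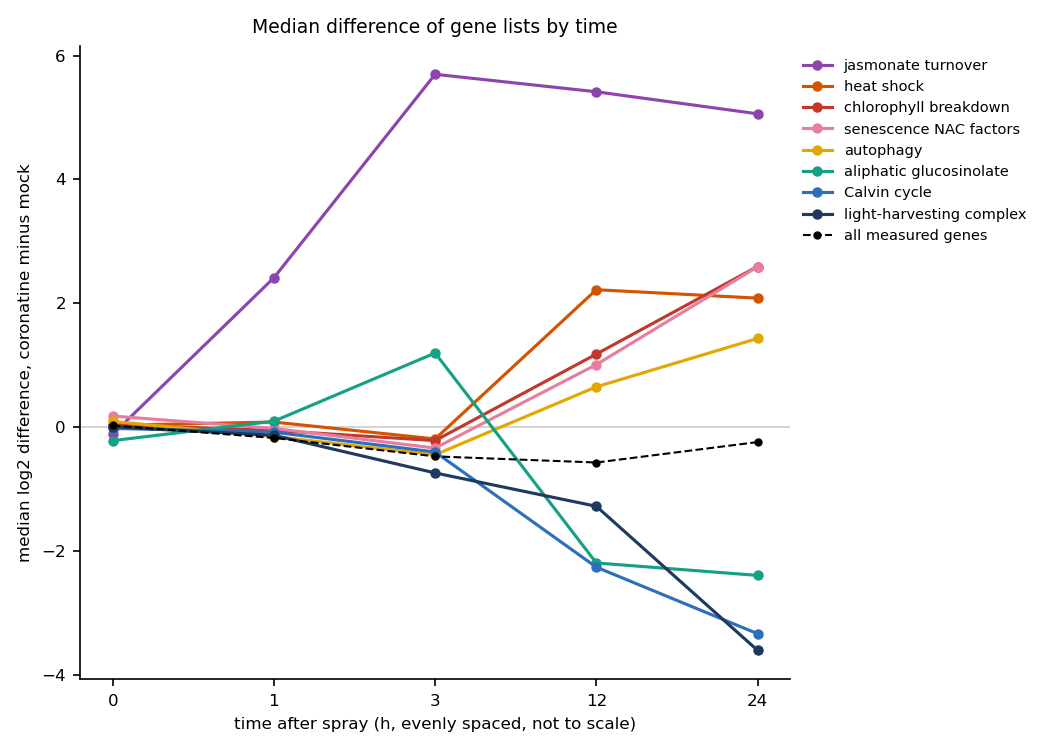
Median log2 difference between coronatine and mock leaves (vertical axis, log2(TPM + 1) scale) at 0, 1, 3, 12 and 24 h after the spray (horizontal axis, evenly spaced, not to scale) for 8 gene lists and, dashed, for all 18052 measured genes; each point is a median over the list's measured genes, and the time points share no library. Aliphatic glucosinolate genes lie above the dashed line at 3 h and below it at 12 h, and autophagy, NAC and chlorophyll breakdown lists rise from 3 h on.

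By 24 h the genes that rose at 12 h were mostly still higher. At 24 h, 37.6% of all measured genes rose and 43.6% fell. Of the 4444, 4168 also rose at 24 h, 52 fell and 224 were not called, and of the 8006 that fell, 6935 also fell at 24 h, 157 rose and 914 were not called. The effect was higher at 24 h than at 12 h in 5314 measured genes (29.4%) and lower in 2749 (15.2%). All 22 autophagy genes and all 12 NAC factors rose at 24 h, and 16 and 9 of them at 12 h, while the share of all measured genes that rose was 37.6% at 24 h and 24.6% at 12 h. NAP, not called at 12 h, measured 91.0, 89.8 and 102 TPM in coronatine leaves, against 19.5, 15.5 and 12.3 TPM in mock leaves at 24 h (difference between the effects 2.33 ± 0.31 SE, adjusted p = 5.1e-07), and NYC1 averaged 319 ± 47.5 TPM in coronatine leaves and 35.1 ± 1.803 TPM in mock leaves at 24 h (SD, n = 3 each, difference 2.78 ± 0.12 SE, adjusted p = 2.1e-15). From 12 to 24 h the level of NYC1 went down in mock leaves and up in coronatine leaves, and both enter its difference. SAG12, below the filter at 12 h and singled out after its values were seen, measured 167, 223 and 224 TPM in coronatine leaves, against 0, 0 and 0 TPM in mock leaves at 24 h. The effect was lower at 24 h in 20 of 21 light-harvesting genes and in all 21 plastid ribosome genes.

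Among genes with a symbol, the 5 whose effect grew most after 12 h were PRX52, DOX1, GLYI4, DOGT1 and LBD15. PRX52, a cell wall peroxidase, averaged 40.7 ± 8.38 TPM in coronatine leaves and 3.65 ± 1.08 TPM in mock leaves at 12 h and 591 ± 49.5 TPM in coronatine leaves and 2.28 ± 0.34 TPM in mock leaves at 24 h (SD, n = 3 each, difference 4.33 ± 0.37 SE, adjusted p = 4.9e-10). DOX1, an alpha-dioxygenase of oxylipin synthesis, had effects of 4.35 and 8.38 (difference 4.03 ± 0.53 SE, adjusted p = 4.6e-07). GLYI4 and LBD15 had effects of 1.29 and 2.53 at 12 h and of 5.25 and 6.38 at 24 h, and DOGT1, a glucosyltransferase not called at 12 h, had −0.81 and 3.13. The 5 whose effect dropped most were LHCB1.4, PIF4, LHCB2.3, SAUR20 and LHCA1, genes whose mock level itself changed between the times. LHCB1.4, a near-identical copy of other LHCB1 genes, measured 209, 149 and 200.1 TPM in coronatine leaves, against 270.3, 344 and 223 TPM in mock leaves at 12 h and 19.6, 20.1 and 16.8 TPM in coronatine leaves, against 3540.2, 3642 and 3804 TPM in mock leaves at 24 h, so its mock level was far lower at 12 h. PIF4, a bHLH factor that promotes growth in darkness and warmth, measured 61.4, 66.8 and 66.6 TPM in coronatine leaves, against 4.64, 4.51 and 4.33 TPM in mock leaves at 12 h (log2 difference 3.58 ± 0.06 SE, adjusted p = 7e-25). At 24 h it measured 56.8, 57.0 and 52.0 TPM in coronatine leaves, against 104, 100.4 and 109 TPM in mock leaves (difference between the effects −4.49 ± 0.08 SE, adjusted p = 1e-22), so the direction differed between the 2 times, and its mock level was lower at 12 h.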

How the data were processed

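Leaf RNA of 30 libraries (coronatine and mock, 5 times, 3 libraries each) was sequenced, and 6 of them are the 12 h groups. The deposited values are TPM (relative transcript abundance, summing to the same total in every library), 1 table for the whole series. The submitters' processing notes name RSEM 1.3.3, DESeq2 3.12 and the TAIR10 build, without their roles. The authors' deposited 12 h comparison table holds per gene a log2 fold change with its SE, a test score and p-values, and was used as an alternative only. TPM keeps no depth, so no counting interval can be given, and 3 libraries per group limit the precision.

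TPM were analysed as log2(TPM + 1) and, after rescaling by unweighted trimmed-mean factors (trims of 30% of log ratios and 5% of mean levels), a second time. limma 3.58.1 in R 4.3.3 was fitted with a mean-variance trend to 10 group means over all libraries, for 19005 genes at 1 TPM or more in 3 libraries. A call needs an adjusted p under 0.05 and the same sign on both scalings. Effects were compared between times by contrasts in the same fit. The code was tested on simulated data. The members and gene lists were chosen with earlier results of these data known. Genes named are the 15 largest calls each way (mean of 10 TPM or more in the higher group, no overlap, a symbol), the 5 largest differences between times each way, the 5 most abundant in each group and, per list, up to 4 that rose, 4 that fell and 2 not called, with all of the JAZ, NAC, chlorophyll breakdown and chloroplast regulator lists. Alternatives were other pseudocounts, filters, scalings, weights, library sets, a replicate block and leaving out each library. In the main fit replicate numbers were not used to pair the libraries. Promoter windows came from the RefSeq genome and annotation (TAIR10.1). Coordinates of genes are those of the authors' table. RNA had an integrity number of at least 6.5, per the labels' protocols. A locus is not reported here.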

Additional observations from a re-analysis of the deposited data

Results flagged for a closer look

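The effect of coronatine at 12 h differed from that at 3 h, by the contrast of the 2 effects in limma on both scalings, most widely in the following genes among those with a symbol. Values are differences of log2 effects, and every adjusted p was under the threshold. The effect was higher at 12 h for PGAZAT by 6.52, GH9B15 by 6.32, GH3.3 by 5.71, BRU6 by 5.11 and UGT73B2 by 4.81. It was lower at 12 h, with differences of −5.52 for IPMI1, −5.16 for LTL1, −4.77 for AACT1, −4.62 for CA2 and −4.52 for CYP79F1. Among these, IPMI1 and CYP79F1 belong to aliphatic glucosinolate synthesis. Several of these genes had mock levels that differed between 3 and 12 h. Mock means at 3 and 12 h were 35.8 and 112 TPM for IPMI1, and 43.3 and 115 TPM for CYP79F1. They were 714 and 1451 TPM for CA2, 4.01 and 19.3 TPM for UGT73B2, and 602 and 360 TPM for AACT1. For LTL1 they were similar, at 163 and 155 TPM.

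Between 24 and 12 h the effect was higher at 24 h for PRX52 by 4.33, DOX1 by 4.03, GLYI4 by 3.96, DOGT1 by 3.94 and LBD15 by 3.85. It was lower at 24 h, with differences of −6.96 for LHCB1.4, −4.49 for PIF4, −4.07 for LHCB2.3, −3.99 for SAUR20 and −3.90 for LHCA1. In these last 5 the mock level also differed between the times. SAUR20 averaged 0.05 ± 0.09 TPM in coronatine leaves and 18.6 ± 0.50 TPM in mock leaves at 24 h, and 0.82 ± 0.87 TPM in coronatine leaves and 1.00 ± 0.28 TPM in mock leaves at 12 h (SD, n = 3 each). LHCB2.3 averaged 6.20 ± 1.98 TPM in coronatine leaves and 2395 ± 111 TPM in mock leaves at 24 h, and its 12 h values are given above. The part of time of day in these differences was not tested.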

How the results depend on the processing

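Scaling had the largest effect. The genes that rose at 12 h numbered 4444, against 7682 with rescaled TPM alone, 7265 with quantile normalization and 7682 in the authors' deposited table. The genes that fell numbered 8006, and 5961 to 11305 over all alternatives. The lowest number came with a filter of 5 TPM, which admits fewer genes, and the highest with TPM as deposited alone. For the 24 h effect minus the 12 h effect, 5314 genes were higher, against 8535 with TPM as deposited alone, and 2749 were lower, against 4915 with rescaled TPM alone and 4891 with quantile normalization. When 1 library of the 12 h groups was left out, 4303 to 4389 genes rose and 7812 to 7866 fell; for 12 h minus 3 h, 5238 to 5400 were higher and 5980 to 6123 lower; for 24 h minus 12 h, 5013 to 5267 were higher and 2571 to 2792 lower. Of 232 called results of named genes, counted per gene and contrast, 227 kept the call under every alternative run. The exceptions were PDF1.2b, PDF1.3, MYC4, ORS1 and PSAE1. MYC4 had −0.19 in the authors' deposited table. Genes whose sign turned, and that were called under either sign, were PSAE1 (−0.07 with quantile normalization) and 6 genes not called on both scalings. For these 6, log2 values follow with rescaled TPM alone, with quantile normalization where it turned the sign too, and in the authors' deposited table. GUN1 had 0.16 and 0.20, NOL 0.26, 0.24 and 0.32, and SUC2 0.40 and 0.44. CLH2 had 0.40, 0.72 and 0.58, TIC55 0.43 and 0.47, and JAZ2 0.50, 0.73 and 0.64. Sign turns without a call under either sign are left out, such as that of LHCB1.4 (−0.58, and 0.08 in the authors' deposited table). The cause was not tested. ACD6 has no adjusted p in the authors' deposited table.

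Same-numbered libraries of the 2 groups did not deviate together (r = −0.036, −0.039 and −0.021 across genes). The labels give no pairing, and with 3 libraries per group a weak one could go unseen. The libraries were treated as unpaired. With the replicate block 4392 genes rose and 7933 fell; 5368 were higher and 6076 lower at 12 than at 3 h; 5125 were higher and 2715 lower at 24 than at 12 h. The block changed no named gene's call.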
